A study of Mus musculus with 11 samples.

Results

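Among the alpha V integrin and TGF-beta ligand genes, Itgav, the alpha V gene, was the 1 of 8 whose groups did not overlap. For Itgav each of the 6 hippocampal libraries labelled as conditional Dclk3 knockout (cKO) lay above all 5 wild-type (WT) libraries. The same held for 67 of the 16587 tested genes (0.404%). The set held 8 genes of the 30681 in the deposited count table: Itgav, the beta subunit genes Itgb1, Itgb3, Itgb5 and Itgb8 that pair with it, and the ligand genes Tgfb1, Tgfb2 and Tgfb3. Members were taken by gene symbol in all 11 libraries. The set was chosen by pathway around Itgav, selected on its measured genotype difference, which had rank 9 of 16587 tested genes by p. The genotype values of the members are therefore a description and carry no test.

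Integrins are cell surface receptors made of an alpha and a beta subunit that bind matrix proteins outside the cell and the cytoskeleton inside it. TGF-beta is secreted in a latent form, in which a propeptide encloses the mature growth factor, and alpha V integrins free it by binding an arginine-glycine-aspartate sequence of that propeptide. In the brain the pairing of alpha V with the Itgb8 product is known from astrocytes and their contacts with blood vessels, and TGF-beta keeps microglia, the resident immune cells, in their mature state.

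Polyadenylated RNA of the hippocampus of mice aged 6 months was sequenced, with 1 hippocampus per library. The groups are labelled only cKO and WT. The sources used here do not give the strain, the recombinase line or the deleted part of Dclk3, nor any treatment. Whether each library had its own animal is not in the labels, and p-values then measure only the spread between these samples, which may be technical.

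Library totals ran from 24001828 to 35674490 counts. Levels below are CPM, the usual depth-scaled counts. Dclk3 averaged 20.1 ± 3.44 CPM over the 6 libraries labelled cKO and 22.4 ± 3.31 CPM over the 5 WT libraries (SD). The log2 difference between them was -0.15 ± 0.12 (SE), with an adjusted p of 0.727 in edgeR, and -0.06 ± 0.15 in the male libraries. The targeted gene thus could not check the labels, and each direction below is that of the labels. By Xist and 4 Y-linked transcripts all 6 libraries labelled cKO were male, while WT held 3 female and 2 male libraries. Sex and genotype therefore overlap in part, and for each member a value with a sex term or in the males stands beside that of all libraries. Defining neuronal markers of the hippocampus, such as Prox1 of granule cells and Wfs1 of CA1 cells, were expressed in every library.

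The link between the ligands and the integrins lies in a short stretch of the propeptide, which is shown because it separates the ligands. Coding sequences are from the GENCODE M21 transcripts (mm10), 5′ to 3′ on the coding strand. The capitals mark the codons for arginine, glycine and aspartate or, in Tgfb2, the triplet of codons aligned with those of Tgfb3.
Tgfb1: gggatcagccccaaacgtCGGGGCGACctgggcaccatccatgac
Tgfb3: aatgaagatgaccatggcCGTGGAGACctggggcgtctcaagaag
Tgfb2: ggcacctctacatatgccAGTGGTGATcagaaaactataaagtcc
The marked codons begin at codon 244 of 390 in Tgfb1 (chromosome 7, 25697142 to 25697150, plus strand) and at codon 261 of 412 in Tgfb3 (chromosome 12, 86062165 to 86062173, minus strand). The aligned triplet of Tgfb2 begins at codon 261 of 414 (chromosome 1, 186630753 to 186630761, minus strand), and the translated Tgfb2 held 0 arginine-glycine-aspartate sequences. Such a sequence was present anywhere in 7.17% of 21547 translated mouse genes. The ligands were more alike in the carboxy-terminal part, which holds the mature factor, with 72.3% to 78.6% identity, than in the part before, with 39.1% to 49.0%.

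A second stretch separates the beta subunits. Their tails inside the cell can carry the sequence asparagine-proline-any residue-tyrosine, which is bound by talin, the protein that joins integrins to actin. The first such site in the last 60 codons is in capitals.
Itgb1: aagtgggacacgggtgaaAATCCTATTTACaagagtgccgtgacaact
Itgb3: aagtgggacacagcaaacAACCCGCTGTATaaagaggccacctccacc
Itgb5: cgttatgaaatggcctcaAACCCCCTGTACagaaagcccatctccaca
Itgb1 held 2 such sites there (the first on chromosome 8, 128732029 to 128732040), Itgb3 held 1 (chromosome 11, 104667086 to 104667097) and Itgb5 held 1 (chromosome 16, 33948663 to 33948674), each on the plus strand. Itgb8 held 0 in its last 60 codons. The share of translated genes with a site in that window was 0.432%. By whole sequence Itgb8 was the most distant of the 4, with 38.5% to 39.4% identity to the rest, against 43.8% to 55.5% among those.

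Itgav (ENSMUSG00000027087, chromosome 2, 83724397 to 83806916, plus strand, mm10) encodes the alpha subunit that all of these beta subunits share. Its level in the libraries labelled cKO was 54.3 CPM at the lowest, 59.4 CPM at the median and 64.5 CPM at the highest. WT replicates 1 to 5 had 52.0, 50.3, 51.7, 46.8 and 49.3 CPM. The groups did not overlap, and the gap from the highest WT library to the lowest one labelled cKO was narrow. Group means were 59.2 ± 3.83 CPM and 50.03 ± 2.11 CPM (SD, n = 6 and 5), with a log2 fold change of 0.24 ± 0.05 (SE; 95% interval 0.13 to 0.35). Of the 16587 tested genes 67, or 0.404%, had all libraries labelled cKO above every WT library, and Itgav was the 1 member among them. The male WT libraries, at 49.3 and 50.3 CPM, lay within the female range of 46.8 to 52.0 CPM, and the male libraries alone gave 0.25 ± 0.07 (log2 ± SE). An annotated antisense transcript, Gm13684, shares 634 exon bases with Itgav and was not counted apart in the table used here, so reads from it could not be told apart if counting ignored the strand.

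**Figure D1:**
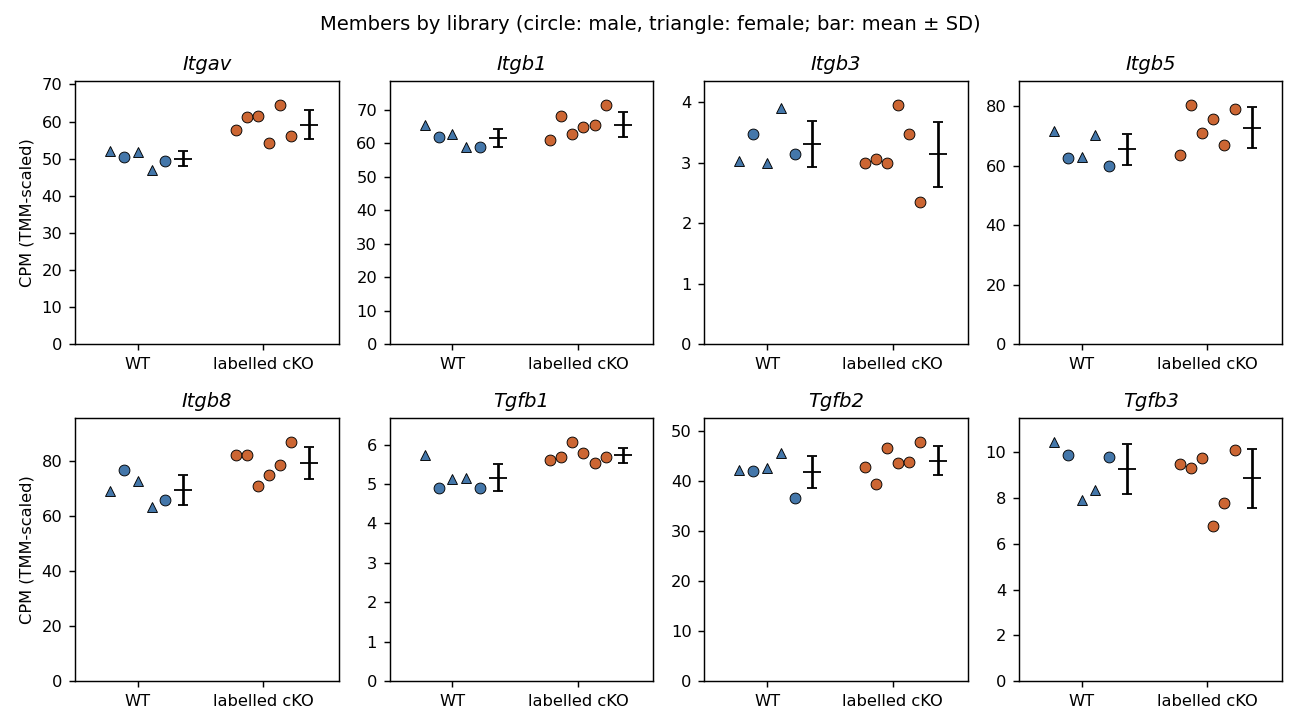
Levels of the 8 genes in each library, in CPM scaled by TMM factors on linear axes from 0, for WT (blue) and libraries labelled cKO (orange). Circles are male and triangles female libraries, and bars give the mean ± SD of 5 WT and 6 labelled cKO libraries; the groups do not overlap for Itgav and overlap for the other 7 genes.

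The beta subunits that pair with alpha V had higher mean levels in the libraries labelled cKO for Itgb1, Itgb5 and Itgb8 and a lower one for Itgb3. Itgb8 (ENSMUSG00000025321, chromosome 12, 119158022 to 119238802, minus strand), the subunit whose tail held 0 of these sequences, ran from 70.9 to 86.9 CPM in the libraries labelled cKO, with a median of 80.3 CPM. WT replicates 1 to 5 had 69.1, 76.6, 72.4, 63.1 and 65.5 CPM. WT replicates 2 and 3 reached into the range of the libraries labelled cKO, and 4 of the 6 lay above every WT library. The log2 fold change of Itgb8 was 0.19 ± 0.06 (SE; 95% interval 0.07 to 0.32), and 0.16 ± 0.08 with a sex term.

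Itgb5 (ENSMUSG00000022817, chromosome 16, 33829665 to 33949338, plus strand), whose product binds vitronectin with alpha V, ran from 63.5 to 80.5 CPM in the libraries labelled cKO, with a median of 73.4 CPM. WT replicates 1 to 5 had 71.7, 62.6, 62.8, 70.5 and 59.9 CPM. The groups overlapped, since 2 female WT libraries stood above 70 CPM. All 6 libraries labelled cKO lay above both male WT libraries, as they did for Itgav and Tgfb1. With only 2 male WT libraries no reading is drawn from this, and the share of all genes for which it holds was not counted. Its log2 fold change was 0.15 ± 0.07 over all libraries and 0.25 ± 0.09 with a sex term (SE).

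Itgb1 (ENSMUSG00000025809, chromosome 8, 128685654 to 128733200, plus strand) pairs with many alpha subunits besides alpha V. It ran from 61.2 to 71.5 CPM with a median of 65.2 CPM in the libraries labelled cKO, and WT replicates 1 to 5 had 65.4, 61.8, 62.7, 58.9 and 59.0 CPM. The ranges overlapped over much of their length, and the log2 fold change was 0.09 ± 0.05 over all libraries and 0.12 ± 0.07 with a sex term (SE). Itgb3 (ENSMUSG00000020689, chromosome 11, 104608000 to 104670476, plus strand), the beta subunit of platelets and of osteoclasts, was scarce, with 66 to 136 counts per library. Its level was 2.36 to 3.96 CPM in the libraries labelled cKO, with a median of 3.03 CPM, and 3.02, 3.47, 2.99, 3.90 and 3.15 CPM in WT replicates 1 to 5. The WT values all lay inside the range of the other group, and the log2 fold change was -0.07 ± 0.13 over all libraries and -0.07 ± 0.18 with a sex term (SE).

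Tgfb2 (ENSMUSG00000039239, chromosome 1, 186622792 to 186705989, minus strand) was the ligand with the most counts. It ran from 39.5 to 47.8 CPM with a median of 43.8 CPM in the libraries labelled cKO, and WT replicates 1 to 5 had 42.3, 41.9, 42.5, 45.5 and 36.6 CPM. The groups overlapped, with male WT replicate 5 the lowest of all 11 libraries. The log2 fold change was 0.08 ± 0.06 over all libraries and 0.17 ± 0.08 with a sex term (SE).

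Tgfb1 (ENSMUSG00000002603, chromosome 7, 25687002 to 25705077, plus strand), the ligand best known from microglia and other immune cells, ran from 5.53 to 6.08 CPM with a median of 5.68 CPM in the libraries labelled cKO. WT replicates 1 to 5 had 5.73, 4.90, 5.13, 5.15 and 4.90 CPM. Of the WT libraries only replicate 1, a female one, reached the range of the libraries labelled cKO. The log2 fold change was 0.15 ± 0.08 over all libraries and 0.23 ± 0.11 with a sex term (SE). Tgfb3 (ENSMUSG00000021253, chromosome 12, 86056745 to 86079041, minus strand) ran from 6.78 to 10.1 CPM with a median of 9.39 CPM, against 10.5, 9.90, 7.92, 8.37 and 9.80 CPM in WT replicates 1 to 5. The WT values of Tgfb3 lay within or just above the range of the libraries labelled cKO, and the log2 fold change was -0.07 ± 0.11 (SE), which turned to 0.0040 without labelled cKO replicate 4. Antisense genes share 124 exon bases with Tgfb2 (Gm29491) and 163 and 257 with Tgfb3 (Gm37804 and Gm48008).

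Of the 8 members 6 had a higher and 2 a lower mean in the libraries labelled cKO, with a median log2 fold change of 0.12. All genes tested divided evenly, with 8293 (50%) higher and 8294 lower, with a median of -7.86e-05. The edgeR test, adjusted over all genes, called 0 members and 0 of all genes (0%). At an unadjusted p under 0.05 it had 3 members higher (Itgav, Itgb8 and Itgb5) and 0 lower, where 3.84% of all genes were higher and 5.35% lower, 9.19% in all. DESeq2 called 1 member, Itgav, among 30 genes called higher, or 0.181% of those tested. DESeq2 called 0 members once sex was a term, and 0 among the males. No reading is drawn from these counts, because the members were proposed with this comparison in view. With a sex term in edgeR each of the 8 fold changes stayed on its side of 0, Tgfb3 moved to -0.15, and Itgb5 and Itgav both stood at 0.25.

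**Figure D2:**
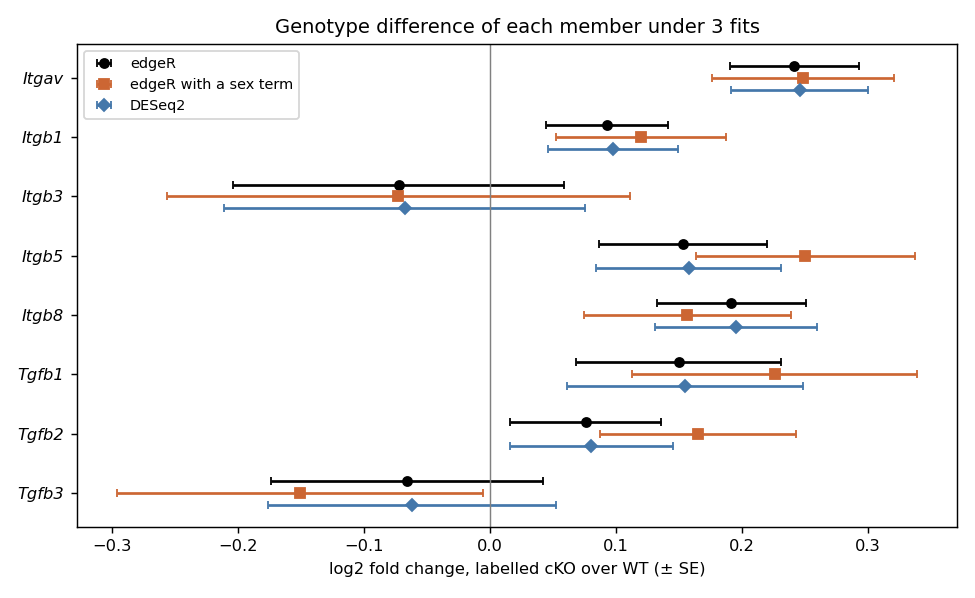
Log2 fold change of each gene, libraries labelled cKO over WT, with its SE, from edgeR (circles), edgeR with a sex term (squares) and DESeq2 (diamonds). Itgav lies at 0.24 to 0.25 in all 3 fits, and Itgb5 moves from 0.15 to 0.25 with the sex term.

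Markers of astrocytes, microglia and blood cells also had higher means under the cKO label. Those of oligodendrocytes were 5 higher and 3 lower, with a median log2 fold change of 0.02. At an unadjusted p under 0.05 (edgeR) 3.84% of all genes were higher. All 8 astrocyte markers had higher means in the libraries labelled cKO, 3 of them at that threshold and 0 after adjustment. Their summed level was 8262 to 10331 CPM there and 6672 to 7895 CPM in WT, with no overlap. That sum is weighted to abundant genes such as Slc1a2 and Gfap, and 0 of the 8 markers lay above every WT library alone. With equal weights, as the mean centred log2 CPM of the 8 markers, the score was 0.10 ± 0.18 against -0.12 ± 0.10 in WT (SD, n = 6 and 5). All 8 microglia markers had higher means too, 4 at an unadjusted p under 0.05 and 0 after adjustment. Their sums of 601 to 874 CPM and 598 to 657 CPM overlapped. All 5 blood cell markers had higher means as well, 1 at an unadjusted p under 0.05 and 0 after adjustment, with a median of 0.16. Their sums of 95.3 to 150.3 CPM and 90.9 to 149.6 CPM overlapped. The endothelial markers, 6 higher and 2 lower, summed to 236 to 264 CPM and 220.0 to 274 CPM. None of these markers was at 0, and no value with a sex term is given for them. Thalamic markers summed to 107 to 143 CPM and 137 to 142 CPM, and 3 of 7 were lower at an unadjusted p under 0.05, as were 5.35% of all genes. Their part in the member values was not tested. In bulk tissue more cells of a type and more RNA per cell cannot be told apart.

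Within genotype, Itgb1, Itgb5 and Itgb8 were higher in the libraries with a higher astrocyte marker score. These correlations are descriptions over 11 libraries with genotype means removed, and the points share library and dissection. Itgb1 had r = 0.93 with the astrocyte score, Itgb5 had 0.75 and Itgb8 had 0.54. Not every marker followed that score. Labelled cKO replicate 6 had the highest score and Itgb1 level, and the highest Gfap, Aqp4, Gja1, Aldh1l1 and Gjb6. Its Slc1a2 (4486 CPM) and Slc1a3 (1020 CPM) were the lowest of the libraries labelled cKO, and its S100b lay within their range. Gfap varied widely, from 667 to 3362 CPM in that group. Itgb5 was nearest to the microglia score, at r = 0.85. Itgav had r = -0.01 with the astrocyte and 0.05 with the microglia score, and its highest value was 0.62, with choroid plexus markers. Values of like size with the other sign were -0.60 with oligodendrocyte, -0.57 with endothelial and -0.51 with hippocampal neuron markers. Labelled cKO replicate 5 had both the highest Itgav level and the highest choroid plexus score of all libraries. That choroid plexus score was 0.83, against a mean of -0.12 over the libraries labelled cKO, and the r without this library was not computed. Among the ligands, Tgfb2 had r = 0.77 with endothelial and 0.62 with pericyte and smooth muscle markers, and Tgfb1 had 0.69 with fibroblast and meningeal and -0.75 with hippocampal neuron markers. Tgfb3 lay between -0.50, with thalamic markers, and 0.37, with astrocyte markers. Itgb3 had r = 0.85 with the thalamic markers.

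**Figure D3:**
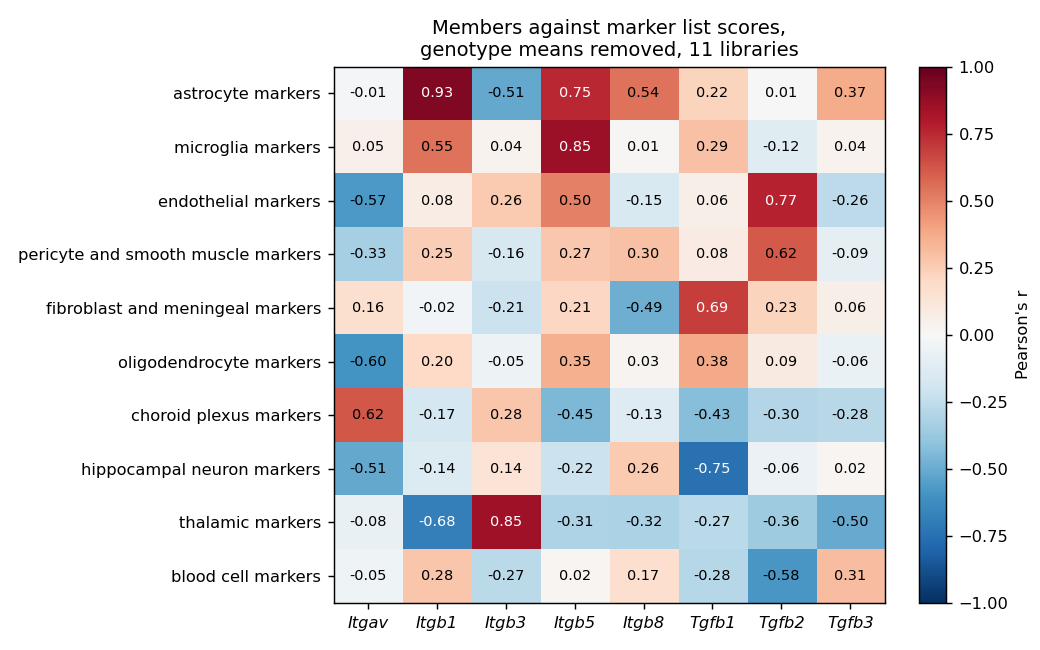
Pearson's r of each gene's log2 CPM with 10 marker list scores over 11 libraries after the genotype means were removed; red is positive and blue negative. The highest value is 0.93 for Itgb1 with astrocyte markers, and Itgav lies between -0.60 and 0.62.

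Whether the members varied together was tested on the same deviations, which do not use the genotype difference. Of 28 pairs 0 passed after Benjamini-Hochberg adjustment (permutation within genotype, 2-sided, 100000 resamples; lowest adjusted p = 0.666), and 2 had an unadjusted p under 0.05. Itgb3 and Tgfb3 had r = -0.71 (permutation p = 0.031) and rho = -0.59 (permutation p = 0.071), and r was -0.43 without the 2 libraries farthest from the median of Itgb3. Itgb1 and Itgb5 had r = 0.65 (permutation p = 0.048) and rho = 0.60 (permutation p = 0.076), and r was 0.44 without the farthest pair of libraries. Itgb1 and Itgb8 had r = 0.58 (permutation p = 0.080) and rho = 0.56 (permutation p = 0.090). Without its farthest pair of libraries the last r was 0.68. Without WT replicate 3 the pair of Itgb3 and Tgfb3 was called, at r = -0.91.

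Between Itgav and its partners the correlations pooled over both groups, with genotype means removed, were small. Its r was 0.16 with Itgb1, 0.11 with Itgb8, -0.24 with Itgb5 and -0.19 with Itgb3 (permutation p = 0.688, 0.763, 0.521 and 0.659). The rho values were 0.30, 0.02, 0.02 and -0.24 (permutation p = 0.411, 0.970, 0.970 and 0.511). After adjustment over the 28 pairs these r had adjusted p of 0.915, so no joint variation of Itgav and its partners was detectable over 11 libraries. These pooled values average groups that differed: with Itgb1, Itgb8 and Itgb3 the r was -0.15, -0.20 and 0.05 over the 6 libraries labelled cKO and 0.88, 0.68 and -0.88 over the WT libraries. The 5 WT libraries are too few for a correlation to be read, and the difference between the groups was not tested.

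Levels were compared between genes as CPM per kilobase of exon sequence merged over all annotated transcripts. Over 11 libraries Itgb5 was at 19.6 ± 1.97 and Itgb1 at 15.6 ± 0.933 CPM per kilobase (SD). Tgfb2 was at 7.43 ± 0.545, Itgb8 at 6.76 ± 0.667 and Itgav at 5.12 ± 0.526, followed by Tgfb3 at 2.68 ± 0.345, Tgfb1 at 1.09 ± 0.0773 and Itgb3 at 0.545 ± 0.0777 CPM per kilobase. Itgb5 exceeded 85.2% and Itgb3 17.0% of 16553 tested genes with a length. Each of the 7 neighbouring pairs in this order differed at this length (2-sided exact sign-flip permutation over libraries, adjusted p from 0.00114 to 0.0117). The neighbours were set by the same means that were tested. These p-values cover only the spread between libraries and not the choice of length. The nearest were Tgfb2 and Itgb8, at a log2 difference of 0.14 ± 0.16 (SD), with Tgfb2 the higher in 9 of 11 libraries.

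The order in the middle depended on the length used. By the longest protein-coding transcript Itgb8 stood at 8.89 ± 0.877, Tgfb2 at 8.41 ± 0.617 and Itgav at 7.80 ± 0.801 CPM per kilobase (SD, n = 11), and neither Itgb8 from Tgfb2 nor Tgfb2 from Itgav was told apart (exact permutation, adjusted p = 0.157 and 0.0615). Tgfb1, with a merged length of 5042 bases and a longest coding transcript of 2175 bases, came to 2.52 ± 0.179 CPM per kilobase (SD, n = 11) and was not told from Tgfb3 at 2.68 ± 0.345 (exact permutation, adjusted p = 0.25). Itgb5 and Itgb1 at the top and Itgb3 at the bottom kept their places under both lengths.

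Among the beta subunits Itgb5 made up 46.0% ± 1.89 of the summed level per length, Itgb1 36.8% ± 1.08, Itgb8 15.9% ± 1.20 and Itgb3 1.29% ± 0.219 (SD, n = 11). Among the ligands Tgfb2 made up 66.4% ± 2.74, Tgfb3 23.9% ± 2.87 and Tgfb1 9.71% ± 0.619 (SD, n = 11). By coding transcript length the Tgfb1 share was 18.5% ± 1.05. The ligand without the arginine-glycine-aspartate sequence was the most abundant of the ligand transcripts under both lengths. The share of Tgfb2 was 67.0% ± 2.46 over the 6 libraries labelled cKO and 65.6% ± 3.17 over the 5 WT libraries (SD), a difference within its spread. By merged exon length Itgb8 was 1.31 ± 0.139 times Itgav over the 6 libraries labelled cKO and 1.35 ± 0.0792 times over the 5 of WT (SD). The size of this ratio depends on the length used. By coding transcript length Itgb8 and Itgav stood closer, at 8.89 ± 0.877 and 7.80 ± 0.801 CPM per kilobase (SD, n = 11).

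**Figure D4:**
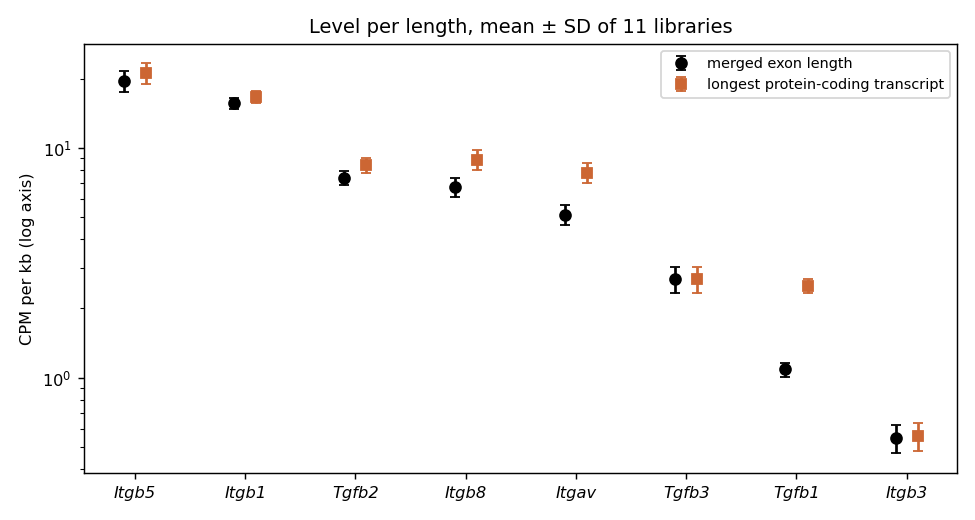
Mean level per length of the 8 genes over 11 libraries, in CPM per kilobase on a log axis, with SD bars, by merged exon length (circles) and longest protein-coding transcript (squares). Itgb5 is highest at 19.6 and Itgb3 lowest at 0.545 by merged length, and Tgfb1 shows the widest gap between the lengths, 1.09 against 2.52.

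By the correlation of deviations within genotype over 11 libraries, among 14311 genes of at least 1 CPM on average, the genes most like Itgav were Tmem29 (r = 0.92), Zfp597 (0.91) and Spata7 (0.90). For Itgb8 they were Tspan12 (r = 0.95), Zbtb20, a zinc finger factor that is also on the hippocampal neuron list (0.95), and Eif4g2 (0.94). For Itgb1 they included Ndufa7 (r = 0.95) and Slc14a1, a urea transporter (0.94), and for Itgb5 they were Rarres2, which encodes chemerin (r = 0.97), Ctsz, a lysosomal protease, and Tbc1d22a (both 0.96). Tgfb1 was nearest to Slc9a4, Fstl1 and Rpap3 (r = 0.91 to 0.92) and Tgfb2 to Hnrnpab, Cln8 and Tmeff1 (0.91 to 0.93). Tgfb3 was nearest to Adcy5, Slc9a3r1 and BC064078 (r = 0.87 to 0.89) and Itgb3 to Tmem203, Pcif1 and Oscp1 (0.89 to 0.92). These are the highest of many correlations over few libraries, and no member was among the 3 nearest genes of another.

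Of the other genes of the pathway, taken from 7 lists, edgeR adjusted over all genes called 0. DESeq2 called 0 of the up to 3 genes with the smallest p in each list, which are those named here, with a lowest adjusted p of 0.0695 for Itga10. Among 16 other alpha subunits 15 were tested, 9 higher and 6 lower, with a median log2 fold change of 0.05. At an unadjusted p under 0.05 (edgeR), 0 were higher and 3 lower, where 3.84% of all genes were higher and 5.35% lower. Itga10, a collagen receptor subunit, averaged 1.45 ± 0.307 CPM against 2.25 ± 0.243 CPM in WT (SD, n = 6 and 5; log2 fold change -0.62 ± 0.16 SE, edgeR adjusted p = 0.346), and all 6 libraries lay below every WT library, as for 85 of all genes (0.512%). Itga7, the laminin receptor subunit of muscle, was at -0.34 ± 0.12 and Itga8, another partner of Itgb1, at -0.23 ± 0.11 (log2 ± SE).

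Of the other beta subunits Itgb2, the leukocyte subunit, was at 0.28 ± 0.15, Itgb4, the partner of Itga6, at -0.02 ± 0.13 and Itgb7 at -0.15 ± 0.32 (log2 ± SE). The sign of Itgb4 turned with a sex term, to 0.02. Itgb6, a further partner of alpha V known from epithelia, did not pass the filter on low counts, with at most 0.060 CPM in any library. Of 17 genes that join integrins to the cytoskeleton 11 were higher and 6 lower, with a median of 0.01. At an unadjusted p under 0.05 (edgeR) there were 2 in each direction, where 3.84% of all genes were higher and 5.35% lower. Ptk2, the focal adhesion kinase, had 117 ± 3.36 CPM and 108 ± 3.88 CPM (SD, n = 6 and 5; log2 fold change 0.12 ± 0.04 SE, edgeR adjusted p = 0.416), and its groups did not overlap. For Ptk2 the libraries labelled cKO lay above every WT library, as for 67 of all genes (0.404%). Paxillin (Pxn) was at -0.22 ± 0.08 and zyxin (Zyx) at -0.16 ± 0.06 (log2 ± SE).

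Genes of proteins that alpha V integrins bind, most of them matrix proteins, had lower means in the majority. Of 12 tested 3 were higher and 9 lower, with a median log2 fold change of -0.11. At an unadjusted p under 0.05 (edgeR), 4 were lower and 0 higher, where 5.35% of all genes were lower and 3.84% higher. Thbs1, thrombospondin 1, which also activates TGF-beta, averaged 1.77 ± 0.369 CPM against 2.57 ± 0.663 CPM in WT (SD, n = 6 and 5; log2 fold change -0.54 ± 0.18 SE, edgeR adjusted p = 0.416), and its fold change with a sex term was -0.34. Spp1, osteopontin, was at -0.49 ± 0.17 and Fbn1, fibrillin 1, which anchors latent TGF-beta, at -0.26 ± 0.10 (log2 ± SE). The fibroblast and meningeal markers, sources of matrix genes, had lower means as well for 6 of 8, with a median of -0.14. At an unadjusted p under 0.05 (edgeR) 3 of them were lower and 0 higher. Their summed levels were 125 to 224 CPM and 147 to 196 CPM in WT, weighted to abundant genes such as Dcn and Pdgfra. The markers of pericytes and smooth muscle had lower means for 6 of 8, with a median of -0.11, and 3 were lower and 1 higher at that threshold. They summed to 276 to 299 CPM and 261 to 311 CPM in WT. Choroid plexus markers had lower means for 5 of 6, with a median of -0.09, and 1 was lower and 0 higher at that threshold. These summed to 77.4 to 245 CPM and 85.8 to 153 CPM in WT. The part of these 3 lists in the matrix gene values was not tested.

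Of the genes that hold TGF-beta latent or free it 12 of 13 were tested, 5 higher and 7 lower, with a median of -0.02. Ltbp1, which tethers the latent complex to the matrix, had 9.04 ± 0.320 CPM and 7.90 ± 0.440 CPM (SD, n = 6 and 5; log2 fold change 0.19 ± 0.07 SE, edgeR adjusted p = 0.436). Ltbp4, of the same family, was at -0.17 ± 0.07 and Mmp14, a membrane protease, at -0.18 ± 0.09 (log2 ± SE). Across 16 receptors and Smad pathway genes 9 were higher and 7 lower, with a median of 0.02. The receptor Tgfbr1 was at 0.14 ± 0.06 and Smad3, which carries the signal to the nucleus, at 0.13 ± 0.06 (log2 ± SE), which was 0.21 for Smad3 with a sex term. Smad7, which inhibits the receptor and is itself induced by it, averaged 12.7 ± 0.513 CPM against 14.7 ± 0.899 CPM in WT (SD, n = 6 and 5; log2 fold change -0.20 ± 0.06 SE, edgeR adjusted p = 0.405), and all 6 lay below every WT library.

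TGF-beta response genes were divided in direction. Of 12 tested 7 were higher and 5 lower, with a median log2 fold change of 0.03 (0.10 with a sex term) and 0 at an unadjusted p under 0.05 in either direction. Id3, an inhibitor of helix-loop-helix factors, was at 0.15 ± 0.08, Tgfbi at -0.30 ± 0.21 and the collagen gene Col1a2 at -0.18 ± 0.15 (log2 ± SE). With a sex term the last pair turned to 0.07 and 0.09, and Col1a2 is also on the fibroblast list.

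**Figure D5:**
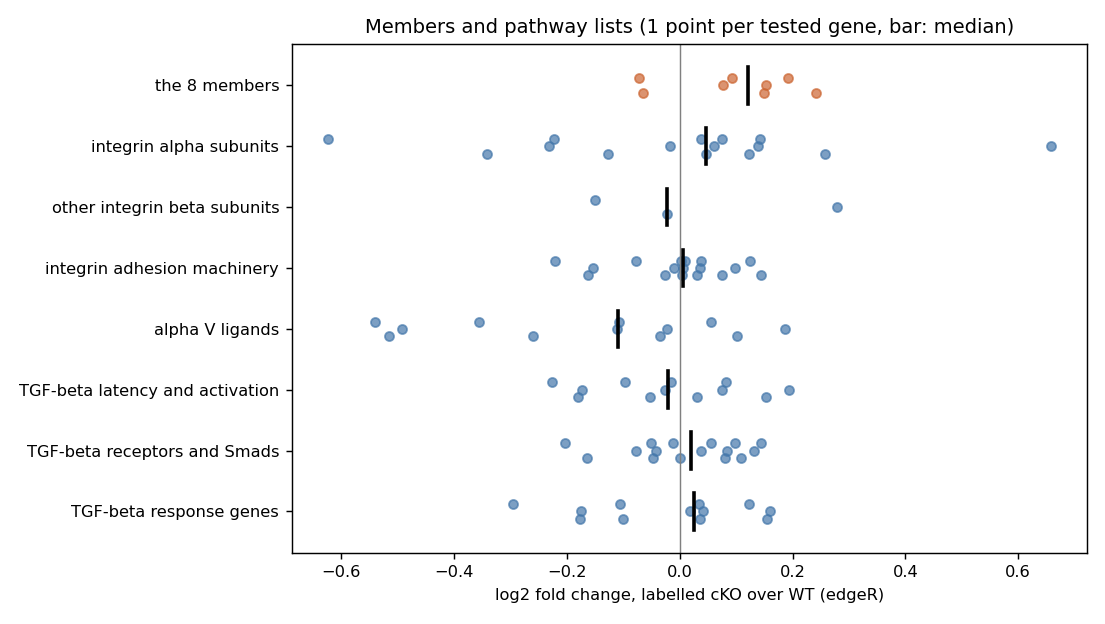
Log2 fold change of each tested gene, libraries labelled cKO over WT (edgeR), for the 8 members (orange) and 7 pathway lists (blue), with the list median as a black bar. The member median lies at 0.12, that of the alpha V ligands at -0.11, and the medians of the other 6 lists between -0.02 and 0.05.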

How the data were processed

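RNA of 6 libraries labelled cKO and 5 WT libraries was prepared with a strand-marking poly(A) kit, per the labels' protocols. The authors deposited raw counts by Ensembl identifier. The tool bcl2fastq 2.17.1.14 and the build mm10 come from the submitters' processing notes. Which aligner, counter and strand setting made them is not given in the sources used here. Of 30681 genes 115 had no symbol.

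Computed here: filterByExpr left 16587 genes, scaled by TMM. CPM values use these factors. The main test was edgeR's quasi-likelihood F test (robust, 2-sided, Benjamini-Hochberg, threshold 0.05). Each SE is the size of a fold change over the root of its F value. Correlations use log2 CPM with a prior count of 2. Members, lists and alternatives were chosen with earlier results of these data known. The rule for named genes takes all members, Dclk3, up to 3 genes of smallest p per pathway list and the 3 genes most like each member, of which 1 is not reported here. Translated APPRIS principal transcripts of GENCODE M21 were aligned with biopython 1.88. R 4.3.3, edgeR 4.0.16, limma 3.58.1 and DESeq2 1.42.0 were used. Alternatives were other scalings, filters and tools, a sex term, males alone, a replicate block, other transcript lengths and leaving out each library. The tests were tried on simulated data. No pair of replicates was alike within sampling noise (smallest chi-square per degree of freedom 5.31).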

Additional observations from a re-analysis of the deposited data

How the results depend on the processing

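Of 176 fold changes of the members under alternatives 174 kept their direction and their side of the threshold. DESeq2 called Itgav (0.25, adjusted p = 0.00601, against 0.0993 to 0.854 under the other alternatives), and Tgfb3 turned without labelled cKO replicate 4 (0.0040, where leaving out a library gave -0.12 to 0.0040). Genes called over the whole table were 0 with edgeR, 3 without a filter, 62 with DESeq2, 4 with DESeq2 plus sex and 3 with DESeq2 in males (both added after the data were seen), and 0 to 14 when a library was left out, with 14 without WT replicate 5, 2 without WT replicate 2 and 1 without WT replicate 1. Pairs of members that varied together were 0, and 0 to 1 when a library was left out. Neighbours told apart in the order of levels were 7, but 4 by coding transcript length (added after the data were seen) and 0 in the 5 WT libraries alone, where no exact p can go under 0.0625. Within the male libraries r turned to -0.11 for Itgav with Itgb1 and with Itgb8, to 0.07 with Itgb3 and to -0.08 with Tgfb1. Over all alternatives Itgav had r of -0.11 to 0.50 with Itgb1 and -0.60 to 0.21 with Itgb3, and leaving out a library gave -0.11 to 0.32 for Itgav with Itgb8.

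With a sex term in edgeR, in males by edgeR, with sex in DESeq2 and in males by DESeq2, Itgb4 was 0.017, 0.020, 0.018 and 0.020 (leaving out a library, -0.11 to 0.050), Tgfbi 0.067, 0.071, 0.070 and 0.072, and Col1a2 0.089, 0.092, 0.090 and 0.092. With the replicate block edgeR called 0 genes. The numbers do not pair the samples by the data, since same-numbered libraries had correlations of deviations from -0.32 to 0.21 and 1 of 5 matched its own number best. Low counts limit Itgb3 and Tgfb1, and 5 against 6 libraries limit all comparisons.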
